A study of Mus musculus with 6 samples.

Results

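The 10 genes described here belong to the cellular response to low oxygen: the hypoxia-inducible factors Hif1a and Epas1, the oxygen-sensing prolyl hydroxylases Egln1 and Egln3, and 6 target genes that lie outside glycolysis, Bnip3, Ndrg1, Ankrd37, P4ha1, P4ha2 and Ak4. They were taken by gene name from a deposited table of 34745 genes, and all 10 were found there. RNA sequencing was done on cultured mouse spermatogonial stem cells, the germline stem cells that sustain sperm production, from DBA/2J X c57BL/6J mice at postnatal day 6 and at culture passages 15 to 20. The 3 control libraries are titled untreated, and the other 3 came from cultures kept about 4 days in complete medium with 100 µM bisphenol A (BPA), a plastics monomer studied as an endocrine disruptor. The labels name no vehicle for the controls and do not tie replicates to cultures or animals. The p-values therefore cover no more than the spread between these 6 samples, which may be technical. The labels give neither the oxygen level of the cultures nor whether feeder cells were used.

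HIF proteins are controlled mainly after translation. When oxygen is available, the EGLN enzymes hydroxylate prolines in the alpha subunits HIF1A and EPAS1, the VHL ubiquitin ligase binds the hydroxylated protein, and it is degraded. When oxygen is scarce the alpha subunits accumulate, pair with ARNT, and bind a short DNA core in target genes, among them genes for glycolysis, blood vessel growth, mitophagy and collagen modification. Messenger RNA of the factors therefore does not report HIF activity by itself, and the targets are the usual readout. Egln3, Ankrd37, Bnip3, Ndrg1 and P4ha1 are widely used target genes.

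The core bound by HIF, ACGTG or GCGTG on either strand, was sought in the 250 bases before each start site in RefSeq promoter windows (GRCm38.p6, the mm10 chromosomes). Of the 10 genes 8 had an entry, all but Epas1 and Ndrg1. Each of these 8 genes, and each of their 11 windows, held at least 1 match, where 38.6% of all 32851 windows did. Of the 4 windows of Ak4, the first 3 overlap and hold the same 2 matches. The number of matches ran from 1 before Egln3 to 5 before Bnip3, a pair of which share 1 palindrome, CACGTG, the E-box core, which 6.0% of all windows hold. The Hif1a window and window 4 of Ak4 also hold 1 such palindrome each. The G+C content of the windows of the 8 genes was 50.8% to 86.0%, and its part in the matches was not tested. A match is a description of letters, not evidence of binding. The first 4 sequences below are from genes of the set with different numbers of matches, none of which passed the test, and the last 2 are from Ddit4, which was higher under BPA, and Ldha, which was lower. They are picked examples, in which the same cores stand before genes that were higher, lower or not past the threshold. Not every window of a gene past the threshold held a match. Window 1 of Vegfa (higher) and the window of Mif (lower) held 0, and window 2 of Vegfa held 2. Capitals mark every match, and each sequence runs 5′ to 3′ and ends at the base before the start site.
Bnip3 (chr7:138909507-138909756, minus strand): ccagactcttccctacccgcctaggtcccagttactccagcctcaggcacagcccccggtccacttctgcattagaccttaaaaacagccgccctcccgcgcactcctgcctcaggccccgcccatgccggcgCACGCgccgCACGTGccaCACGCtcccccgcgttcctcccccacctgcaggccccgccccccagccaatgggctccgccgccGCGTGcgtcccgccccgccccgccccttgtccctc
Ankrd37 (chr8:45999851-46000100, minus strand): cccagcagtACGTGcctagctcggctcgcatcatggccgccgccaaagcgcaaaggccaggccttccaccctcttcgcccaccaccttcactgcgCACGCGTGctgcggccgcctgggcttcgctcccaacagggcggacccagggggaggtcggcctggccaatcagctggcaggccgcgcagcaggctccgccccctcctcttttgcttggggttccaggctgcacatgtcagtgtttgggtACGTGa
Egln3 (chr12:54203875-54204124, minus strand): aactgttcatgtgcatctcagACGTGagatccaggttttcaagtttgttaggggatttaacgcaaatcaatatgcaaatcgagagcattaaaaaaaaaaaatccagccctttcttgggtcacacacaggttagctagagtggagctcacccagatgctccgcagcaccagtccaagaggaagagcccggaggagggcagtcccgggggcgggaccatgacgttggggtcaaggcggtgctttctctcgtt
Ak4 (chr4:101419039-101419288, plus strand): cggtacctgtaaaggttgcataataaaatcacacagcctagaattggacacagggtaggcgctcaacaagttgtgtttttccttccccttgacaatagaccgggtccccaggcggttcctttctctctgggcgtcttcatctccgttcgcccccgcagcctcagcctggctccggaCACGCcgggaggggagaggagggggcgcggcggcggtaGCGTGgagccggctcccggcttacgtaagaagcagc
Ddit4 (chr10:59951771-59952020, minus strand): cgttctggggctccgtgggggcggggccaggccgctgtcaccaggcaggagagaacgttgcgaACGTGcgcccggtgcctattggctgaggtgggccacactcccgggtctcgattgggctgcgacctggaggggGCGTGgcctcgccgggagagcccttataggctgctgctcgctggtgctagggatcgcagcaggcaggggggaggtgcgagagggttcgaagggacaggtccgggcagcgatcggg
Ldha (chr7:46845554-46845803, plus strand): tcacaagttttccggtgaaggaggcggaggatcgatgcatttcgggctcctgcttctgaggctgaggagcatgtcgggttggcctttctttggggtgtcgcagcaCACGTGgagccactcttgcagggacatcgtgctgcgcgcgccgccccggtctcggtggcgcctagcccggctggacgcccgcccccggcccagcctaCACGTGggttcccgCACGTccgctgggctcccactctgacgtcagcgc

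In Bnip3 the palindrome began at position -108 from the start site, and the match nearest the start of Ankrd37 began at -6. The single match of Egln3 lay near the far end of the window, at -229. Of the other lists described below, 11 of 17 windows of HIF machinery genes, 30 of 45 of other hypoxia targets, 26 of 34 of glycolysis genes and 8 of 15 of relatives of Ndrg1 and Ak4 held a match.

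None of the 10 genes passed the false discovery rate (FDR) of 0.05 in edgeR's quasi-likelihood test of BPA against untreated cultures. Over all 13287 tested genes 10.6% passed it, 4.37% as higher and 6.28% as lower under BPA (580 and 835 genes; 831 and 786 when scaled by library size alone). All 10 genes had enough counts to be tested. At an unadjusted p under 0.05 stood 3 of the 10, Epas1, Ndrg1 and Ak4, against 25.3% of all tested genes, and the same 3 were the genes whose groups did not overlap, against 31.3%. DESeq2 called 1 of the 10, Epas1, where it called 16.3% of all genes, and limma-voom called 0 where it called 10.7%. A correction for G+C content and gene length called 2 (16.1% of all genes), the same correction with a replicate block 1 (16.5%) and leaving out BPA replicate 2 called 2 (20.5%). Leaving out any of the other 5 libraries called 0 of the 10, and 3.25% (without untreated replicate 1), 3.72% (untreated replicate 2), 5.88% (untreated replicate 3), 4.15% (BPA replicate 1) and 5.23% (BPA replicate 3) of all genes. The median log2 fold change of the 10 genes was -0.17, beside 0.10 for all tested genes, with 4 values above 0 and 6 below.

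Library totals were 13453280 to 22286517 counts. Counts per library were 4 to 42 for Ankrd37 and 21 to 2905 for the other 9 genes. Levels are given as CPM, counts scaled to a common library total, with TMM scaling (trimmed mean of M-values), fold changes as log2 of BPA over untreated with a standard error (SE) and a 95% interval. "Adjusted p" means edgeR's quasi-likelihood test with Benjamini-Hochberg adjustment over all tested genes. All 13 germ cell markers checked were detected, with summed levels of 2504 to 2594 CPM in untreated and 1862 to 2406 CPM in BPA libraries. Of these markers 5 were lower and 1 was higher under BPA: Nanos3, Pou5f1, Uchl1, Id4 and Dnd1 fell by 2.65, 2.19, 0.82, 1.0 and 0.57 on the log2 scale and Sall4 rose by 0.82 (edgeR adjusted p from 8.5e-06 to 0.0401). Their part in the values of the 10 genes was not tested. On the first 2 principal components (40.2% and 22.4% of the variance) the untreated libraries lay farther from each other than the BPA libraries did, with untreated replicate 2 at -101.0 and untreated replicates 1 and 3 at -25.3 and -34.9 on the first, against 29.9 to 67.9 for the BPA libraries. BPA replicate 2 also differed from the other BPA libraries by base composition: over the 3319 tested genes with the lowest G+C content (31.0% to 45.7%) its median log2 difference from the mean of the other 2 BPA libraries was -0.63, and over the 3318 with the highest (55.1% to 75.5%) it was 0.44.

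**Figure D1:**
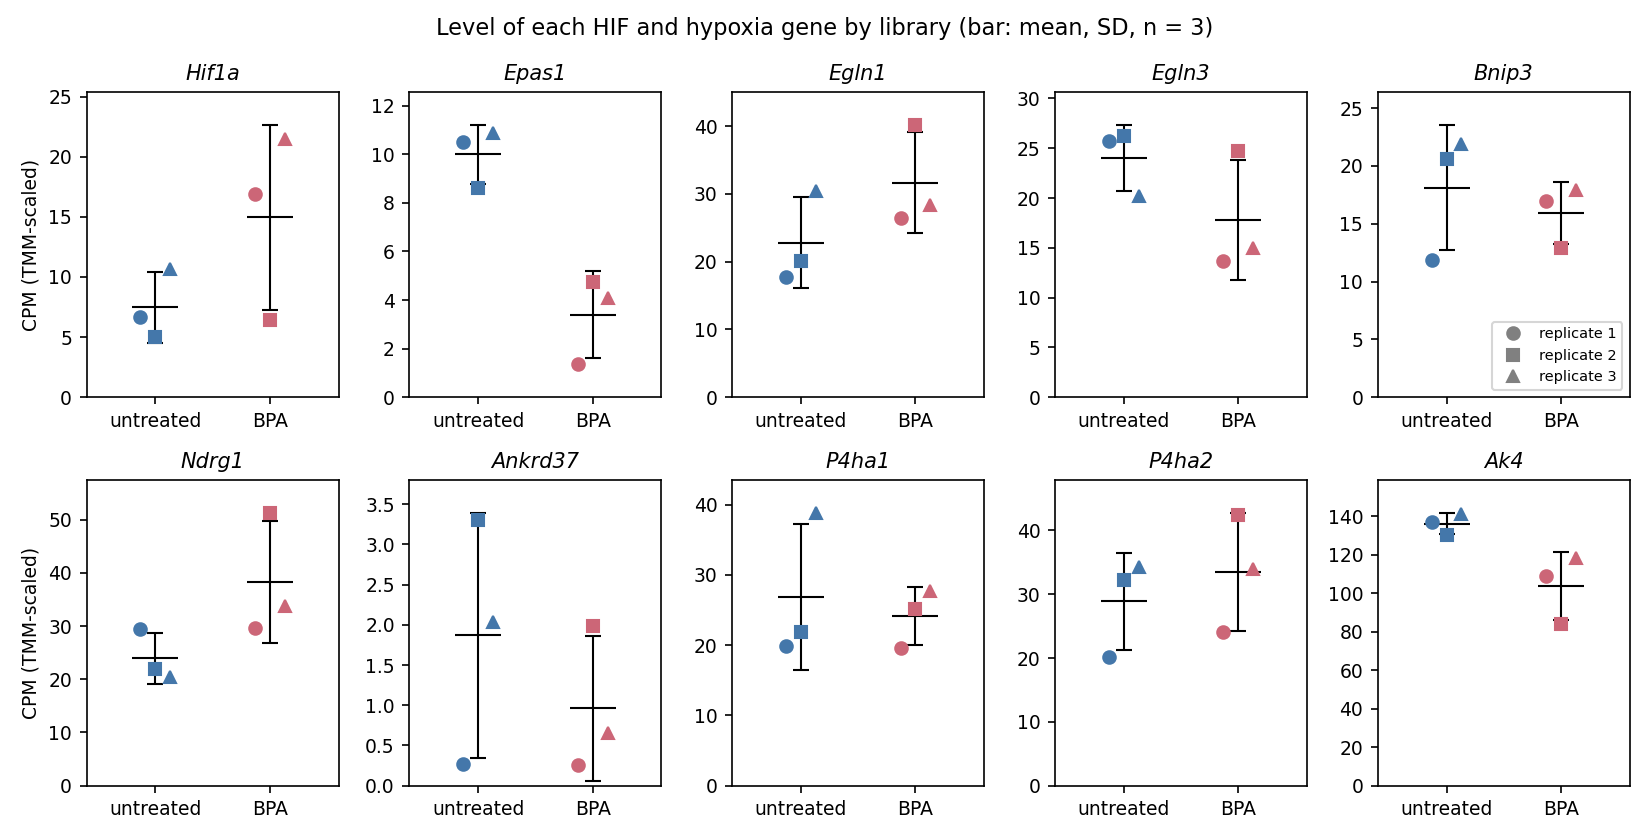
TMM-scaled CPM of each of the 10 genes in the 3 untreated (blue) and 3 BPA (red) libraries, with the mean and SD of each group in black and symbols for the replicate number; every axis starts at 0. Groups do not overlap for Epas1, Ndrg1 and Ak4, and BPA replicate 2 lies apart from the other BPA libraries for Hif1a.

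Epas1 encodes the alpha subunit also known as HIF-2-alpha, best known from endothelial cells (ENSMUSG00000024140, chromosome 17, 86753907 to 86833410, mm10). It was at 10.5, 8.63 and 10.9 CPM in untreated replicates 1 to 3 and at 1.37, 4.76 and 4.08 CPM in BPA replicates 1 to 3. All BPA libraries lay below all untreated ones, and BPA replicate 1, with 21 counts, was the lowest. The log2 fold change was -1.55 (SE 0.53, 95% interval -2.70 to -0.40), the largest in size of the 10, with an adjusted p of 0.085, which misses the threshold. It passed as lower in DESeq2 (adjusted p = 0.0343), after the G+C and length correction (edgeR adjusted p = 0.0464) and without BPA replicate 2 (-1.86, edgeR adjusted p = 0.0424), and its adjusted p was up to 0.235 over 16 alternatives. In bulk samples, fewer cells of a type and less RNA per cell cannot be told apart. Over 6 endothelial markers the summed level was 12.1 to 16.4 CPM in untreated and 3.60 to 10.2 CPM in BPA libraries, most of it from Pecam1. None of the 3 that could be tested passed, and they did not move together. Pecam1 and Cdh5 were at -1.20 and -1.55 on the log2 scale and Kdr at 1.09. Tek was counted only in BPA libraries, Tie1 only in untreated ones, and Emcn was at 0 in every library. Their part in the Epas1 value was not tested.

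Hif1a encodes the other main alpha subunit (ENSMUSG00000021109, chromosome 12, 73901375 to 73947530). Untreated libraries held 6.68, 5.02 and 10.7 CPM and BPA libraries 16.9, 6.44 and 21.5 CPM. BPA replicates 1 and 3 were above every untreated library, while BPA replicate 2 lay inside the untreated range. The log2 fold change was 1.0 (SE 0.48, 95% interval -0.05 to 2.04, edgeR adjusted p = 0.22). Without BPA replicate 2 it was 1.36 and passed (edgeR adjusted p = 0.034), and after the correction for G+C content and length it was 0.55 (edgeR adjusted p = 0.354). The longest Hif1a transcript has a G+C content of 41.3%, within that lowest range, and BPA replicate 2 differed from the other BPA libraries by -1.32 (log2) for this gene. The part of base composition in the Hif1a value was not tested beyond that correction. Other genes overlap 8.1% of the Hif1a exon length, the antisense Gm15283 and the protein-coding Gm49321 on the same strand. Gm15283 had 0 counts in every library, and counts of Gm49321 were not examined.

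Within each library the 2 factors could be compared per length, as FPKM, read fragments scaled by gene length and library total. The ratio of Epas1 to Hif1a was 2.06, 2.25 and 1.33 in the untreated libraries and 0.107, 0.967 and 0.248 in the BPA libraries. Epas1 was thus the more abundant transcript in all 3 untreated libraries and Hif1a in all 3 BPA libraries, by a narrow margin in BPA replicate 2. The mean log2 ratio differed by -2.64 between the groups (exact two-sided permutation test, p = 0.10, the smallest that 3 against 3 allows). This ratio was chosen after the values were seen. The FPKM values were not corrected for G+C content, which is 52.5% in the longest Epas1 transcript and 41.3% in that of Hif1a. Its part in the ratio was not tested.

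**Figure D2:**
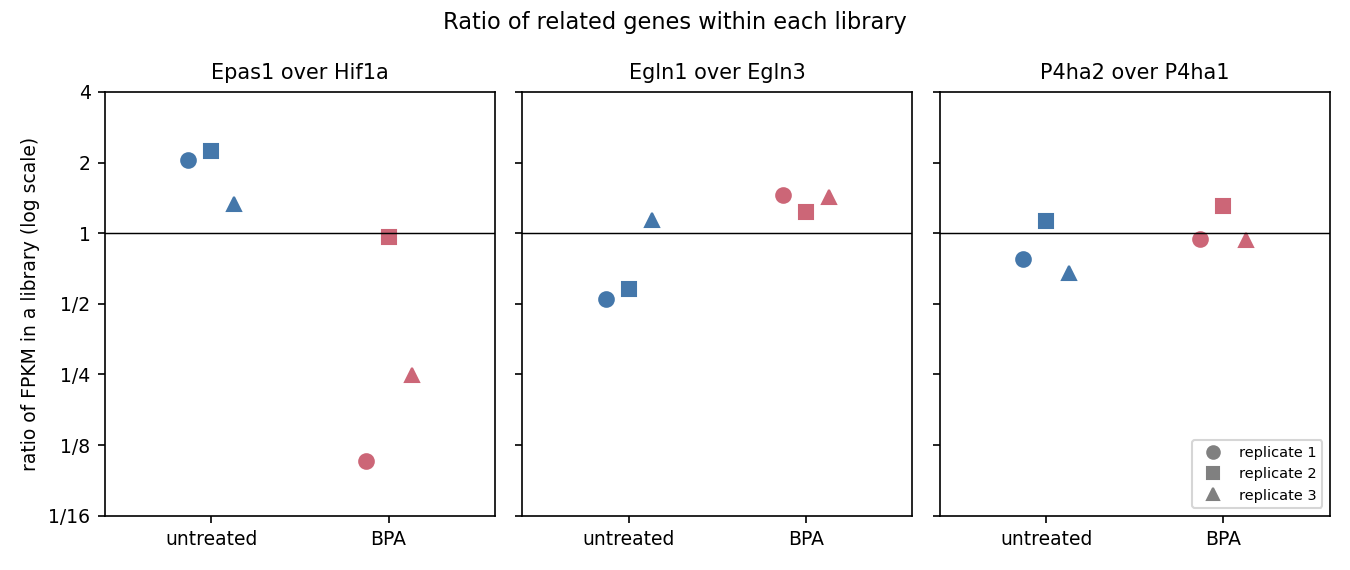
Ratio of FPKM of related genes within each library on a log axis (Epas1 over Hif1a, Egln1 over Egln3, P4ha2 over P4ha1), for 3 untreated (blue) and 3 BPA (red) libraries, with symbols for the replicate number. The groups do not overlap for the first 2 ratios, and they do for the third. FPKM values are not corrected for G+C content.

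The oxygen sensors Egln1 and Egln3 hydroxylate the HIF alpha subunits, and Egln3 is itself a strong HIF target. Egln1 (ENSMUSG00000031987, chromosome 8, 124908596 to 124949254) was at 17.8, 20.1 and 30.4 CPM in untreated and 26.4, 40.2 and 28.4 CPM in BPA libraries. Untreated replicate 3 lay inside the BPA range, so the groups overlapped, with a log2 fold change of 0.48 (SE 0.30, 95% interval -0.17 to 1.13, edgeR adjusted p = 0.348). Egln3 (ENSMUSG00000035105, chromosome 12, 54178981 to 54203860) was at 25.7, 26.2 and 20.2 CPM in untreated and 13.7, 24.7 and 15.0 CPM in BPA libraries. Its BPA replicates 1 and 3 were below every untreated library and BPA replicate 2 was not (-0.43, SE 0.31, 95% interval -1.11 to 0.25, edgeR adjusted p = 0.427). Without BPA replicate 2 the value was -0.74 (edgeR adjusted p = 0.0957). The ratio of Egln1 to Egln3, per length and also chosen after the values were seen, was 0.523, 0.580 and 1.14 in untreated and 1.46, 1.23 and 1.43 in BPA libraries. The groups did not overlap (difference of mean log2 ratio 0.97, exact two-sided permutation test, p = 0.10, again the smallest that 3 against 3 allows). The longest transcripts of Egln1 and Egln3 have a G+C content of 56.0% and 51.4%, and its part in this ratio was not tested.

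Ndrg1 encodes a stress-responsive protein induced by hypoxia in many cell types (ENSMUSG00000005125, chromosome 15, 66929321 to 66969640). Untreated libraries were at 29.4, 22 and 20.4 CPM and BPA libraries at 29.7, 51.2 and 33.8 CPM. The groups did not overlap, though BPA replicate 1 and untreated replicate 1 lay next to each other. The log2 fold change was 0.68 (SE 0.28, 95% interval 0.06 to 1.30) and did not pass (edgeR adjusted p = 0.16), nor did it under any of 16 alternatives, where the adjusted p was 0.0841 to 0.331. Among its relatives, Ndrg2 fell by 1.69 and Ndrg3 by 0.67 on the log2 scale (edgeR adjusted p = 0.0141 and 0.0329), and Ndrg4 was at 59.4 ± 4.40 and 61.1 ± 8.31 CPM (SD, n = 3 per group; edgeR adjusted p = 0.926). Ndrg2 lost its call when untreated replicate 2 was left out (edgeR adjusted p = 0.0915), and Ndrg3 when untreated replicate 1, 2 or 3 or BPA replicate 1 or 3 was (0.0565 to 0.159). Whether Ndrg1 differed from Ndrg2 or Ndrg3 in its change was not tested. Genes on the opposite strand, Gm17035 and Gm2895, overlap 8.4% of the Ndrg1 exon length. Gm17035 had 0 counts in every library, and Gm2895 had 11 in BPA replicate 1 and 0 elsewhere.

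Bnip3 encodes a mitochondrial outer membrane protein that recruits the autophagy machinery to mitochondria (ENSMUSG00000078566, chromosome 7, 138890836 to 138909519). Its levels were 11.9, 20.6 and 21.9 CPM in untreated and 17.0, 12.9 and 17.9 CPM in BPA libraries. The BPA libraries all lay inside the untreated range, with a log2 fold change of -0.19 (SE 0.33, 95% interval -0.91 to 0.54, edgeR adjusted p = 0.784). An antisense gene overlaps 22.3% of the Bnip3 exon length, and the kit does not mark strand. Apart from this overlap, 4 other genes share at least 300 bases with Bnip3 at 95% identity or more. Neither the antisense gene nor these 4 have counts of their own in the deposited data, so the Bnip3 counts are uncertain. The Bnip3 relative Bnip3l, also a mitophagy receptor, was at 59.9 ± 10.1 CPM in untreated and 73.7 ± 24.3 CPM in BPA libraries (SD, n = 3 per group; edgeR adjusted p = 0.519). With BPA replicate 2 left out Bnip3l passed, at 0.55 (edgeR adjusted p = 0.0444), and it was at -0.08 after the correction for G+C content and length.

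Ankrd37 encodes an ankyrin repeat protein known mainly as a HIF target (ENSMUSG00000050914, chromosome 8, 45996902 to 45999867). It had 5, 42 and 28 counts in untreated and 4, 40 and 16 in BPA libraries, or 0.274, 3.30 and 2.03 CPM and 0.262, 1.98 and 0.652 CPM. Replicate 1 was lowest in both groups. The interval of the log2 fold change, -3.66 to 1.78 around -0.94, holds large changes in both directions (edgeR adjusted p = 0.696). The spread between replicates was the widest of the 10 genes, with a biological coefficient of variation of 0.95. Of the Ankrd37 exon length 26.4% overlaps Ufsp2 and Lrp2bp on the opposite strand. Ufsp2 had 15 to 111 counts in untreated and 161 to 325 in BPA libraries, and Lrp2bp had 0 in all 6.

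P4ha1 and P4ha2 encode alternative catalytic subunits of collagen prolyl 4-hydroxylase, which stabilises the collagen triple helix. P4ha1 (ENSMUSG00000019916, chromosome 10, 59323296 to 59373304) was at 19.9, 21.9 and 38.8 CPM in untreated and 19.6, 25.1 and 27.7 CPM in BPA libraries. Untreated replicate 3 was the highest of the 6, and the remaining libraries lay close together (-0.15, SE 0.31, 95% interval -0.84 to 0.53, edgeR adjusted p = 0.812). P4ha2 (ENSMUSG00000018906, chromosome 11, 54100095 to 54131665) was at 20.1, 32.3 and 34.2 CPM in untreated and 24.1, 42.5 and 33.9 CPM in BPA libraries, with overlapping groups (0.22, SE 0.30, 95% interval -0.43 to 0.87, edgeR adjusted p = 0.704). The ratio of P4ha2 to P4ha1 per length was 0.677 to 1.13 in untreated and 0.940 to 1.30 in BPA libraries, with overlap (exact two-sided permutation test, p = 0.30). P4hb, the partner subunit of both and also a protein disulfide isomerase, fell by 0.51 on the log2 scale (SE 0.13, edgeR adjusted p = 0.0273), from 2314 ± 86.1 to 1621 ± 242 CPM (SD, n = 3 per group). P4hb lost its call when untreated replicate 1, 2 or 3 or BPA replicate 1 or 3 was left out (edgeR adjusted p from 0.0597 to 0.145). Fibroblast markers, which include collagen genes, summed to 96.7 to 135 CPM in untreated and 65.7 to 102 CPM in BPA libraries, with 0 of 8 tested markers past the threshold.

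Ak4 encodes an adenylate kinase of the mitochondrial matrix (ENSMUSG00000028527, chromosome 4, 101419277 to 101466995) and was the most abundant of the 10 genes. Untreated libraries were at 137, 130.3 and 141 CPM and BPA libraries at 109, 83.9 and 118 CPM. All BPA libraries lay below all untreated ones, and the untreated libraries differed little. The log2 fold change was -0.39 (SE 0.18, 95% interval -0.77 to -0.01, edgeR adjusted p = 0.188), a small difference measured with the lowest biological coefficient of variation of the set (0.17). After the correction for G+C content and length Ak4 passed as lower (-0.55, edgeR adjusted p = 0.02). A processed pseudogene with 99.6% identity over 672 bases had at most 1 count in any library. The adenylate kinase genes Ak1, Ak3 and Ak6 did not pass, with log2 fold changes of -0.58, -0.06 and -0.63 (each with an edgeR adjusted p of at least 0.281), and Ak5 had too few counts to be tested.

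Per length, the order of the 10 genes in untreated cultures ran from Ak4 (22.2 ± 1.44 FPKM, SD, n = 3) through Egln3 (8.68 ± 1.0), Egln1 (6.27 ± 2.03), Bnip3 (5.55 ± 1.73), P4ha1 (3.99 ± 1.65), P4ha2 (3.28 ± 0.912), Ndrg1 (2.72 ± 0.507), Epas1 (1.82 ± 0.253) and Hif1a (1.04 ± 0.439) to Ankrd37 (0.622 ± 0.499). Neighbours in this order overlapped in their range, except Ak4 and Egln3, Ndrg1 and Epas1, and Epas1 and Hif1a. Under BPA, Ak4 stayed first at 18.4 ± 4.51 FPKM and Ankrd37 last at 0.330 ± 0.283 FPKM. Egln1 (9.24 ± 1.38 FPKM) stood above Egln3 (6.81 ± 1.69 FPKM) and Hif1a (2.29 ± 1.29 FPKM) above Epas1 (0.655 ± 0.327 FPKM), each in the reverse of the untreated order. Of these last 2 pairs, the ranges were separate only for Hif1a and Epas1. None of these levels was corrected for G+C content. Both factors were rare beside the sensor Egln2, which was at 93.7 ± 2.36 and 67.5 ± 6.16 FPKM in untreated and BPA cultures.

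The rest of the HIF machinery was read from a list of 19 genes, all tested, of which 1 was higher and 2 were lower under BPA (median log2 fold change 0.23). These 3 of 19 are to be read against the 10.6% of all tested genes past the same threshold, and are close to it. Siah2, a ubiquitin ligase that targets EGLN enzymes for degradation, rose from 39.4 ± 4.34 to 86.7 ± 21.2 CPM (SD, n = 3 per group; 1.14, SE 0.22, edgeR adjusted p = 0.00753). Egln2, the prolyl hydroxylase most abundant here, fell by 0.57 on the log2 scale, from 323 ± 12.4 to 218 ± 39.1 CPM (SE of the log2 value 0.16, edgeR adjusted p = 0.0392). Rbx1, the RING subunit of the VHL ligase and of other cullin ligases, fell by 0.71, from 126 ± 14.4 to 76.9 ± 2.62 CPM (SE of the log2 value 0.17, edgeR adjusted p = 0.0211). Siah2 lost its call when untreated replicate 1 was left out (edgeR adjusted p = 0.063). Egln2 lost it when untreated replicate 1, 2 or 3 or BPA replicate 1 or 3 was left out (0.0754 to 0.174). Egln2 passed in the other 11 of 16 alternatives, among them the correction for G+C content and length, where its value was -0.34. Rbx1 lost its call when untreated replicate 1 or 2 or BPA replicate 1 or 3 was left out (0.0672 to 0.116) and after that correction (0.0619).

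The dimer partner Arnt was at 65.6 ± 8.94 CPM in untreated and 80.7 ± 13.4 CPM in BPA libraries (SD, n = 3 per group; 0.30, 95% interval -0.14 to 0.73, edgeR adjusted p = 0.387). Vhl, which recognises hydroxylated HIF, was at 78.5 ± 11.6 and 94.7 ± 0.169 CPM (0.27, 95% interval -0.12 to 0.66, edgeR adjusted p = 0.38). Hif1an, an asparagine hydroxylase that blocks coactivator binding, was at 216 ± 38.8 and 219 ± 42.7 CPM (0.02, 95% interval -0.38 to 0.43, edgeR adjusted p = 0.959).

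Of 43 other hypoxia targets outside glycolysis 40 could be tested, and 3 were higher and 2 lower (median log2 fold change 0.29), a share close to the 10.6% of all tested genes. Without BPA replicate 2 the counts were 7 higher and 5 lower, where the share of all genes past the threshold was 20.5%. Ddit4, an inhibitor of mTORC1 signalling that hypoxia and other stresses induce, rose from 111 ± 20.1 to 446 ± 88.5 CPM (SD, n = 3 per group; 2.01, SE 0.19, edgeR adjusted p = 7.6e-05). Vegfa, the vascular growth factor, was at 11.1, 7.93 and 11 CPM in untreated and 30.1, 22.5 and 34.3 CPM in BPA libraries (1.54, SE 0.31, edgeR adjusted p = 0.00915). Stc2, which encodes a secreted glycoprotein induced by several stresses, had 1 count in the 3 untreated and 1758 in the 3 BPA libraries, a ratio of 1312 with a 95% interval of 235 to 51863 from counting error only. These 3 genes passed in all 16 alternatives.

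The lower targets were Mif and P4hb. Mif, a cytokine gene, fell by 0.75 on the log2 scale, from 698 ± 50.2 to 415 ± 78.4 CPM (SD, n = 3 per group; SE of the log2 value 0.16, edgeR adjusted p = 0.0105). It lost its call when untreated replicate 1 or 2 or BPA replicate 1 was left out (edgeR adjusted p from 0.0594 to 0.0846), and its value was -0.10 after the correction for G+C content and length (0.612). Plod2, a collagen lysyl hydroxylase, was at 14.8, 13.6 and 12.1 CPM in untreated and 32.7, 9.07 and 36.3 CPM in BPA libraries. Like Hif1a it was high in BPA replicates 1 and 3 and not in BPA replicate 2 (0.95, SE 0.44, edgeR adjusted p = 0.199, and 1.35 with adjusted p = 0.0039 without that library). After the correction for G+C content and length Plod2 was at 0.43 (edgeR adjusted p = 0.43), and with a replicate block as well at 0.37 (0.516).

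**Figure D3:**
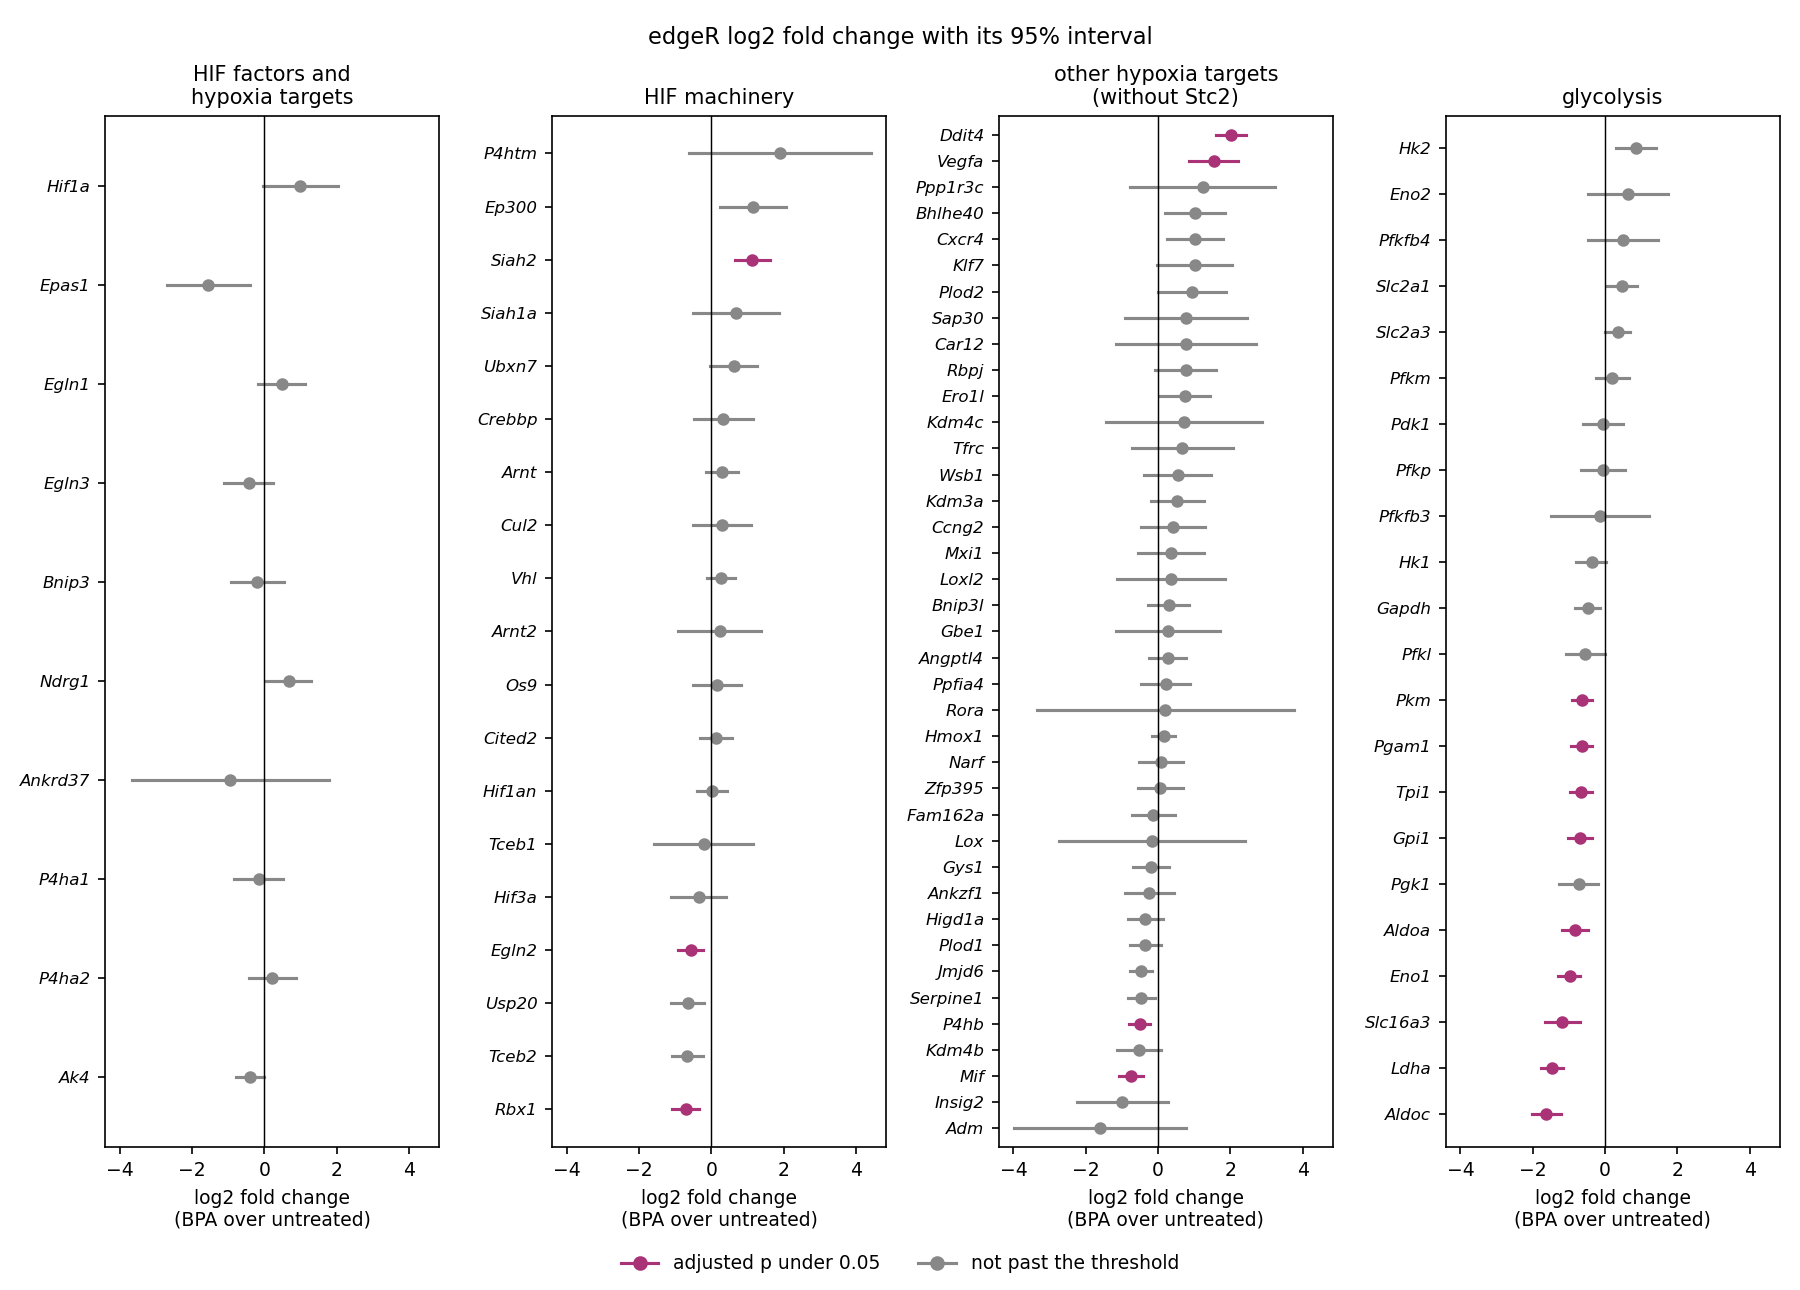
edgeR log2 fold change (BPA over untreated, point) with its 95% interval (line) for the 10 genes, 19 HIF machinery genes, 39 other hypoxia targets and 22 glycolysis genes, coloured by whether the adjusted p was under 0.05. None of the 10 genes is coloured as passing, 9 glycolysis genes are, all below 0, and Stc2 is not drawn because of its single untreated count.

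Glycolysis genes, the best known HIF targets, were set beside the 10 genes as the most closely related group. Of 22 glycolysis genes 9 were lower and 0 higher in edgeR, with a median log2 fold change of -0.51, where 6.28% of all tested genes were lower and 4.37% higher. At an unadjusted p under 0.05 stood 3 higher and 11 lower ones, where 12.8% of all tested genes were higher and 12.5% lower. Ldha, lactate dehydrogenase A, fell by 1.46 (SE 0.14), Aldoc, an aldolase, by 1.63 (SE 0.18) and Eno1, an enolase, by 0.98 (SE 0.14) on the log2 scale, with edgeR adjusted p of 8.5e-05, 2.4e-04 and 0.00109, and these 3 passed in all 16 alternatives. The number lower was 3 without untreated replicate 2 and 5 without untreated replicate 1 or BPA replicate 1. The difference between the 9 of 22 here and the 0 of 10 above was not tested, and the glycolysis genes were measured more precisely, with a median biological coefficient of variation of 0.18 against 0.29.

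Markers of other cell types that the cultures could hold moved as follows. Of 8 Sertoli cell markers the summed level was 14.1 to 19.1 CPM in untreated and 34.8 to 50.7 CPM in BPA libraries, with Sox9 past the threshold as higher (1.5 on the log2 scale, edgeR adjusted p = 0.0104) and Rhox5 and Fshr at 0 in every library. Of 6 macrophage markers the sum was 56.5 to 60.6 CPM in untreated and 29.8 to 43.3 CPM in BPA libraries, most of it from Cd68. Adgre1, Csf1r and Ptprc were at most 0.603, 0.943 and 0.0496 CPM in any library, and Cx3cr1 was at 0. The 2 that could be tested, Cd68 and Lyz2, did not pass (edgeR adjusted p = 0.14 and 0.141). Of 6 Leydig cell markers the sum was at most 0.986 CPM in untreated and 1.30 CPM in BPA libraries, with 4 of them at 0. Their part in the values of the 10 genes was not tested.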

How the data were processed

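The authors deposited 1 table with raw gene counts and FPKM values for 6 libraries. Total RNA went into TruSeq RNA v2 libraries, per the labels' protocols. TopHat2 2.0.9, HTSeq and mm10 are named in the submitters' processing notes, while the HTSeq version, annotation release and strand setting were not given in the sources used here. Deposited FPKM values, per the file headers, equalled counts per length and library total to within a relative deviation of 1.5e-05 and served for levels between genes. The deposited counts were filtered with filterByExpr, scaled by TMM and tested with edgeR 4.0.16 (quasi-likelihood, no block, FDR 0.05, R 4.3.3). An SE is the log2 fold change over the square root of F. Alternatives were DESeq2 1.42.0, limma-voom (limma 3.58.1), other scalings and filters, an FDR of 0.01, a replicate block, a lowess correction (span 0.3) for G+C content (GENCODE M21 transcripts, 99.9% of tested genes) and length, and leaving out each library. The scripts were tested on simulated data.

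The 10 genes, the gene lists and the marker lists were chosen with earlier results of these data known. Named were the 10 genes, up to 6 genes each of HIF machinery and other targets past the threshold, 9 genes always named, 3 glycolysis genes with the smallest adjusted p, and relatives of Ndrg1 and Ak4, of which 1 is not reported here.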

Additional observations from a re-analysis of the deposited data

How the results depend on the processing

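Of the 10 genes, 0 passed in 12 of 16 alternatives. The number lower was 1 in DESeq2 (Epas1), 2 after the G+C and length correction (Epas1 and Ak4) and 1 with the replicate block and that correction together (Ak4). Leaving out 1 library gave 0 to 1 higher and 0 to 1 lower, with Hif1a and Epas1 passing without BPA replicate 2. Among all genes the counts, 580 higher and 835 lower, were 162 to 1207 higher and 282 to 1600 lower when 1 library was left out, lowest without untreated replicate 1 and highest without BPA replicate 2. They were 938 higher in DESeq2, 927 with no low-count filter and 900 after the G+C and length correction. With an FDR of 0.01 they were 155 and 322. The median log2 fold change of all genes was 0.10, and 0.21 with library size alone, where 831 genes were higher and 786 lower.

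For HIF machinery (1 higher, 2 lower) the number higher was 2 in DESeq2 and with no low-count filter, and the number lower 4 in limma-voom, in DESeq2, with the replicate block and with no low-count filter. With an FDR of 0.01 the number lower was 0 for HIF machinery, other targets and the relatives of Ndrg1 and Ak4. Other targets (3 higher, 2 lower) had 4 lower in DESeq2. Glycolysis genes (0 higher) had 1 higher in DESeq2 and with upper quartile scaling, 2 after the G+C and length correction and 3 with library size alone. Without 1 library the ranges were 0 to 2 higher and 0 to 4 lower for HIF machinery, 3 to 7 and 0 to 5 for other targets, 3 to 12 lower for glycolysis, and 0 to 2 lower for the relatives.

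Some values changed sign, none of them past the threshold: after the G+C and length correction Arnt was at -0.09, Bnip3l at -0.08 and Hif1an at -0.06. When 1 library was left out, Hif1an ranged from -0.15 (without BPA replicate 2; -0.06 without untreated replicate 3) to 0.17, Ndrg4 from -0.07 (without BPA replicate 2; -0.01 without untreated replicate 2) to 0.13, Bnip3 from -0.41 to 0.03 and P4ha1 from -0.33 to 0.25, the last 2 highest without untreated replicate 3. The causes were not tested.

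Whether replicate numbers pair the samples cannot be decided with 3 libraries per group. Deviations of same-numbered libraries correlated at -0.02, 0.06 and 0.07, and those of differently numbered ones at -0.08 to 0.03. Replicates 2 and 3 of each group correlated best with their own number, and replicate 1 of each group did not. The replicate block gave 721 genes higher and 985 lower, and called 0 of the 10 genes. With the replicate block and the G+C and length correction together, 912 genes were higher and 1286 lower, 4 other targets were lower and 2 glycolysis genes higher, Arnt was at -0.09, Bnip3l at -0.07 and Hif1an at -0.05.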

Other observations

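Several hypoxia genes outside the 10 shared the pattern of Hif1a across the BPA libraries, with BPA replicate 2 far below the other 2. Tfrc, the transferrin receptor, was at 26.2, 2.38 and 27.0 CPM in BPA replicates 1 to 3 and at 9.50 to 15.3 CPM in untreated ones. Cul2, the cullin scaffold of the VHL ligase, was at 30.9, 11.4 and 30.3 CPM in BPA and 17.7 to 20.9 CPM in untreated libraries, and Rbpj, the DNA-binding factor of Notch signalling, at 31.1, 13 and 39.7 CPM in BPA and 13.5 to 21.9 CPM in untreated libraries. The longest transcripts of Tfrc, Cul2, Rbpj, Plod2 and Bnip3l have a G+C content of 39.8% to 43.7%, within the range of the 3319 tested genes with the lowest values. For these 5 genes BPA replicate 2 differed from the other BPA libraries by -0.91 (Bnip3l) to -2.71 (Tfrc) on the log2 scale. The median of the 3319 genes was -0.63. It was -0.10 over tested genes with a G+C content of 45.7% to 50.5%, and 0.24 over those with 50.5% to 55.1%. Of the 10 genes, Epas1, Egln1, Egln3, Ndrg1, Ankrd37 and P4ha2, with 50.4% to 56.0%, were highest in BPA replicate 2 among the BPA libraries. Hif1a (41.3%), Bnip3 (41.6%) and Ak4 (49.5%) were lowest in it, by -1.32, -0.39 and -0.43 on the log2 scale. P4ha1 (45.7%, 0.10) lay between the other 2 BPA libraries there. Ndrg1 (50.4%, 0.66) and Ak4 (49.5%, -0.43) both lie in the range of 45.7% to 50.5% and differed in sign. These genes were chosen after their values were seen, and the part of base composition was not tested gene by gene.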
